A study of Mus musculus with 6 samples.

Results

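Inhibition in the forebrain depends on receptors for GABA and glycine, on the proteins that hold them at synapses, and on the transporters that set neuronal chloride. The 31 genes described here encode GABA-A, GABA-B and glycine receptor subunits, their scaffold and auxiliary proteins, and chloride transporters. They were taken by name from a count table of 53715 genes, each name matched 1 row, and 29 of the 31 passed the filter on low counts. Poly(A) RNA was measured in the piriform cortex, a large primary olfactory area, of Gad2-Cre mice, which make Cre recombinase in cells that express the GABA-synthesising enzyme Gad2. All animals carried the Cre allele and had received a stereotactic injection of virus into the cortex of 1 side. The Caspase3 group (3 libraries) received AAV-DIO-Caspase3, an adeno-associated virus whose apoptosis-executing protease is made only where Cre is present, and the GFP group (3 libraries) received AAV-DIO-GFP. The labels used here give no age, sex, interval after injection or sampled hemisphere, nor is it stated that each library is its own animal. The p-values therefore speak only of the spread among these 6 libraries, part of which may be technical.

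GABA-A receptors are pentameric chloride channels, and their alpha, beta, gamma and other subunits set where the channel sits and how long it stays open. Receptors with a gamma subunit cluster at synapses on gephyrin, whereas those with a delta subunit, and many with alpha5, lie outside synapses and carry tonic inhibition. GABA-B receptors are heterodimers that signal through G proteins, glycine receptors are chloride channels related to GABA-A receptors, and the direction of chloride flow through either channel follows the balance of import and export across the membrane. These receptors are made by the cells that receive inhibition, which include excitatory neurons and glia as well as the GABAergic neurons that express Gad2. In bulk tissue, fewer cells of a type and less RNA per cell cannot be told apart.

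Total counts lay between 20424581 and 26268377 per library. Gad2 itself stood at 26.7, 38.5 and 38.0 CPM (counts relative to the library's total, adjusted by TMM factors) in Caspase3 libraries 1 to 3 and at 92.4, 118.0 and 103.7 CPM in GFP libraries 1 to 3. Marker lists for GABAergic neurons and for other cells of the sample, chosen with earlier results of these data known, were read as well. The summed level of 9 GABAergic neuron markers was 439.0 to 696.6 CPM in the Caspase3 group and 799.6 to 1127 CPM in the GFP group, and 1 of the 9, Gad2, was called lower. All 9 had negative fold changes, 8 were lower at an unadjusted p under 0.05 (edgeR), and 7 were lower without overlap between the groups. Among all genes tested, 0.114% were called lower, 3.91% were lower at that unadjusted p and 6.29% were lower without overlap. The summed level of 7 microglial markers was 458.4 to 624.9 against 293.8 to 342.5 CPM. Of the 7, 5 were called higher, where 1.53% of all genes were. The 12 markers of striatal projection neurons, none of them called, summed to 306.0 to 331.3 CPM in the Caspase3 group, to 357.5 and 448.8 CPM in GFP replicates 2 and 1, and to 1459 CPM in GFP replicate 3. All 12 had negative fold changes, 9 were lower at an unadjusted p under 0.05 (edgeR), and 5 were lower without overlap. The 6 oligodendrocyte markers, none of them called, summed to 12341 CPM in Caspase3 replicate 1 and to 7482 to 8793 CPM in the other 5 libraries. All 6 had positive fold changes, and 2, Mog and Cnp, were higher without overlap. Mog alone was higher at an unadjusted p under 0.05 (edgeR), as were 6.72% of all genes. All 7 cortical excitatory markers were detected, at sums of 3521 to 3827 and 3379 to 3984 CPM. Summed markers of astrocytes, oligodendrocyte precursors, endothelial cells, choroid plexus, thalamus and olfactory bulb overlapped between the groups, and Otx2 of the choroid plexus list was the 1 marker at 0 in every library. Within these lists, 2 of 4 tested olfactory bulb markers, Sp8 and Th, were lower without overlap. Kl, 1 of 3 tested choroid plexus markers, was higher without overlap, as were 8.96% of all genes. Of the 3, 2 had positive fold changes and 1, Clic6, a negative one (log2 fold change -3.11 ± 1.14, SE, edgeR unadjusted p = 0.0231). Clic6 overlapped between the groups, at 10.9 CPM in GFP replicate 3 and 0.14 to 1.40 CPM in the other 5 libraries. None of these markers was called. The part of these cell type signals in the results on the receptor genes was not tested. A value given without a library shows only how far that result rests on the library left out.

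The transcripts of the 31 genes spanned more than 3 orders of magnitude when compared per kilobase of gene length. In the GFP group the highest were Gabbr1, the GABA-B subunit that binds the transmitter, at 72.5 ± 1.12 CPM per kilobase (SD, n = 3), Glrb, the glycine receptor subunit that binds gephyrin, at 71.6 ± 11.2, and Slc12a5, the potassium-chloride exporter KCC2, at 63.2 ± 3.98. Glrb overlapped both of the others, while Gabbr1 lay above Slc12a5 in every GFP library. Gabra3, Slc12a2 and Gabrb2 followed at 43.6 ± 3.38, 40.9 ± 5.30 and 39.4 ± 4.92 CPM per kilobase, which lay within one another's spread. Gabrg3 was low, at 2.55 ± 0.21, and Kctd8, Gabrr2, Gabrq and Glra1 were below 1 CPM per kilobase. Gabre and Gabrr1 did not pass the filter, with 0 to 5 and 0 to 3 counts per library, at or near the floor of 3 counts (0.118 to 0.142 CPM).

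**Figure D1:**
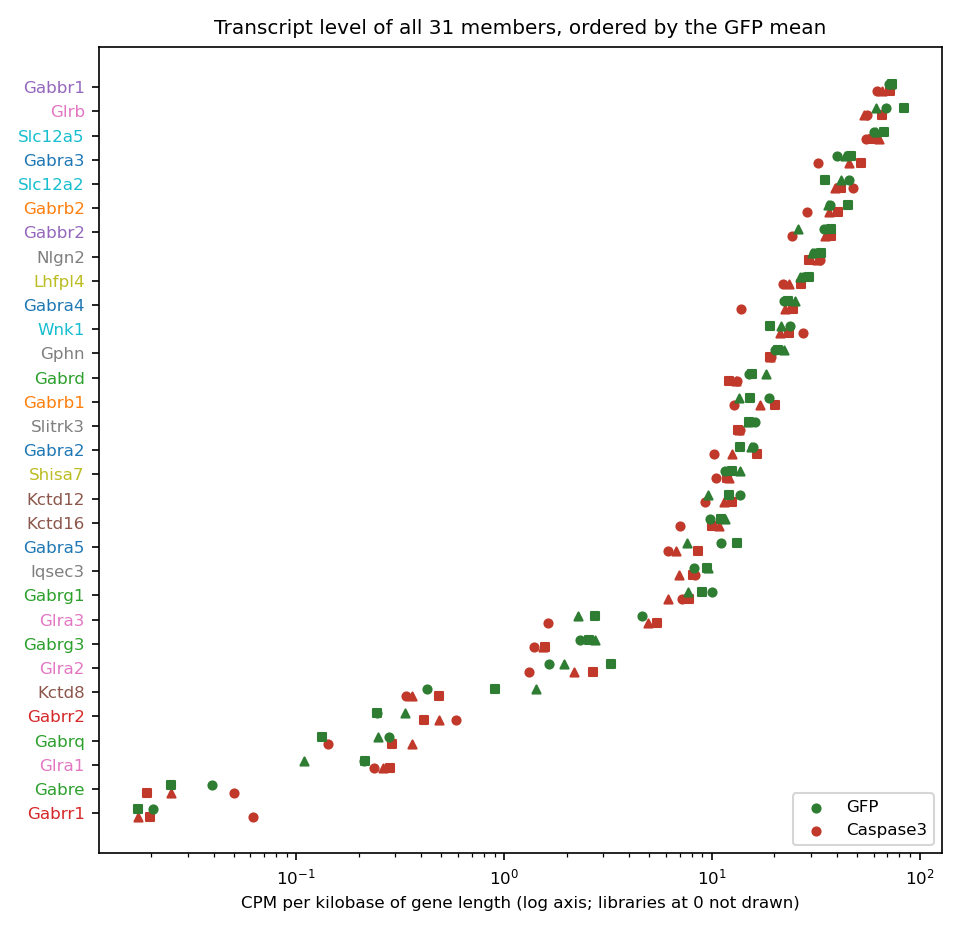
Level of each of the 31 genes in CPM per kilobase of gene length (log axis), 1 point per library (circle, square and triangle for replicates 1, 2 and 3), green for GFP and red for Caspase3, with gene names coloured by role. The order runs from Gabbr1 and Glrb at the top to Gabre and Gabrr1 at the bottom, and the red points of Gabrg3 lie left of its green points.

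Of the 29 genes tested, 1 fell in the Caspase3 group, none rose and 28 did not pass (edgeR's quasi-likelihood test, Benjamini-Hochberg adjusted p under 0.05 over 16721 genes). Among all genes tested 1.64% passed, 0.114% lower and 1.53% higher. At an unadjusted p under 0.05, 6 members were lower (Gabrg3, Gabrd, Gabra5, Gabrg1, Kctd8 and Slitrk3) and 1, Gabrr2, was higher, where 3.91% and 6.72% of all genes were. DESeq2 and limma-voom each called Gabrg3 lower and no member higher, where 0.481% and 0.0837% of all genes were called lower and 1.93% and 1.29% higher. The fold change was negative for 22 of the 29, with a median of -0.14 on the log2 scale, against 50.2% negative and a median of 0.00 over all genes. With library totals in place of TMM factors 19 were negative, with Gabra3, Gabbr2 and Nlgn2 changing sign, and with upper-quartile factors 20 were, with Gabra3 and Nlgn2 changing sign.

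Caspase3 replicate 1 held the lowest of the 6 values for 17 of the 29 members, and for 23.3% of all genes tested. Those 17 were the 4 alpha and both beta subunits, Gabrg3, both GABA-B subunits, the 3 Kctd genes, Glra2, Glra3, Lhfpl4, Shisa7 and Slc12a5. Without that library the members' median was -0.04 and 19 of 29 were negative, and Gabra3, Gabbr2, Kctd12, Glra2 and Slc12a2 changed sign. Without GFP replicate 2 the median was -0.11 and 19 of 29 were also negative, and Gabra3, Gabbr2, Glra2, Nlgn2 and Slc12a2 changed sign. Of the summed marker lists, those of oligodendrocytes and microglia were highest in Caspase3 replicate 1. Those of GABAergic neurons, striatal projection neurons and thalamus were lowest there. The same library held the highest value for 3 of the 29 members and for 27.1% of all genes tested. The 95% interval of the fold change lay within 1.5-fold in both directions for 17 of the 29 members, and for 56.8% of all genes. In simulated counts for this comparison, the test recovered 22.9% of genes changed 1.5-fold and 70.8% of genes changed 2-fold, so many changes of the smaller size would not have been called.

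**Figure D2:**
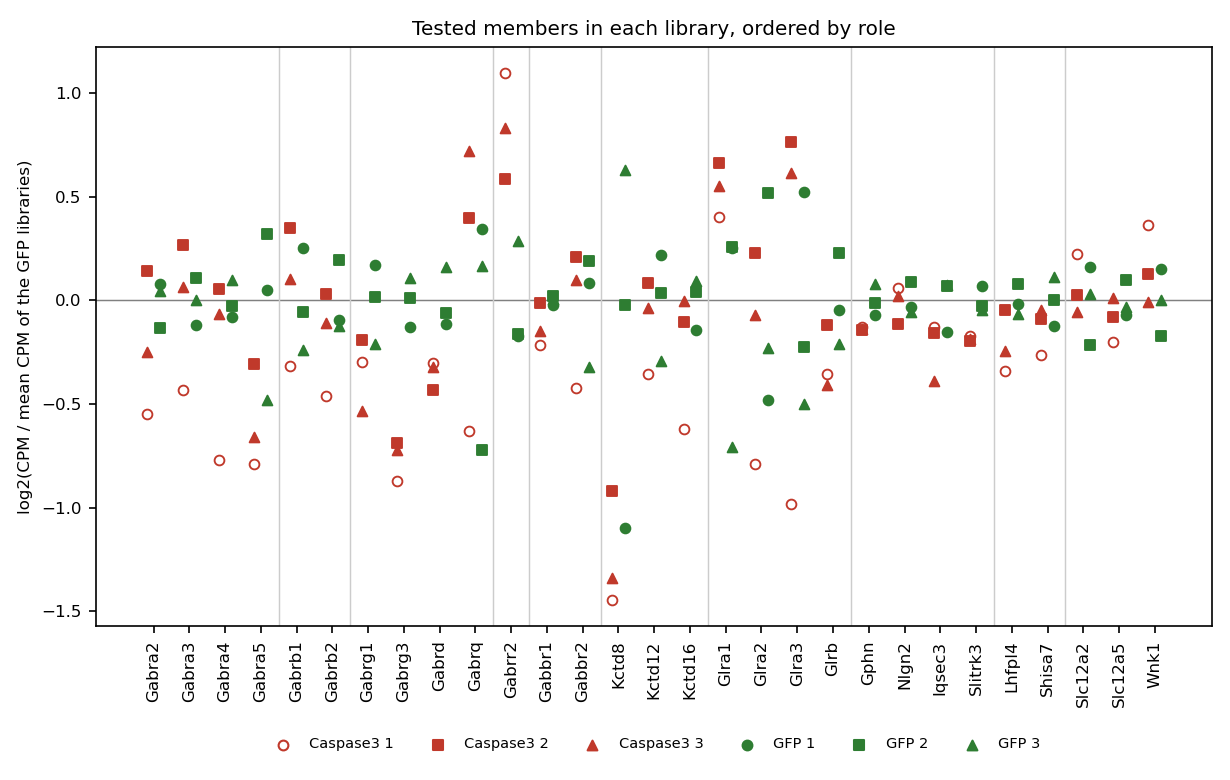
Value of each tested member in each library as the log2 ratio to the mean CPM of the GFP libraries, ordered by role (vertical lines separate roles), with red for Caspase3 and green for GFP and shapes for replicates. The open circles of Caspase3 replicate 1 are the lowest points for 17 of the 29 genes, and for Gabrg3 all 3 red points lie below all 3 green points.

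Gabrg3 (ENSMUSG00000055026, chromosome 7, 56716465 to 57387188, minus strand, GRCm38), which encodes the gamma3 subunit, was the 1 member that fell. The transcript stood at 16.6, 18.9 and 18.5 CPM in Caspase3 libraries 1 to 3 and at 27.8, 30.7 and 32.8 CPM in GFP libraries 1 to 3. The highest Caspase3 library lay well below the lowest GFP library. Its group means were 17.99 ± 1.19 and 30.5 ± 2.51 CPM (SD, n = 3), a 1.69-fold fall with a log2 fold change of -0.76 ± 0.11 (SE, 95% interval -1.01 to -0.51) and an edgeR adjusted p of 0.00992. GFP replicate 3, the library with high striatal markers, held its highest value, and without that library the log2 fold change was -0.71 (edgeR adjusted p = 0.0477). Without GFP replicate 2 the size was the same, -0.75, but the call was lost (edgeR adjusted p = 0.0684), in a fit in which 0.0117% of 17165 genes fell and 0.0874% rose. It was also lost in limma on log2(FPKM + 0.1) and on log2(FPKM + 1), at -0.73 and -0.51 on those scales (limma adjusted p = 0.0704 and 0.0983), where 0.053% and 0% of all genes fell. Across the other fits with 1 library left out the edgeR adjusted p was 0.0204 to 0.0397, and with both GFP replicate 3 and Caspase3 replicate 1 left out it was 0.0317 (log2 fold change -0.65).

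Gabrg3 lies beside Gabra5, the alpha5 subunit gene, on the same strand of chromosome 7 (57407672 to 57510059), whose 3′ end lies 20484 bases from the start of Gabrg3. Gabra5 stood at 18.3, 25.6 and 20.04 CPM in Caspase3 libraries 1 to 3 and at 32.8, 39.5 and 22.7 CPM in GFP libraries 1 to 3. The groups overlapped, since GFP replicate 3 lay below Caspase3 replicate 2. Its log2 fold change of -0.57 ± 0.20 (SE) did not pass (edgeR adjusted p = 0.333). Without GFP replicate 3 it was -0.77 and without GFP replicate 2 it was -0.38, neither of which passed, and the adjusted p over the alternatives ranged from 0.00979, in edgeR with no filter on low counts, to 0.766. With no filter Gabra5, Gabrg3 and Kctd8 were called lower, where 0.79% of all genes were called lower and 2.1% higher. An antisense gene, Gm9962, overlaps its exons by 148 bases but held 60 counts in all libraries together, against 3675 for Gabra5.

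The 250 bases before the annotated starts of these neighbours are shown because they are the promoters of the member that fell and of the adjacent subunit gene with the largest negative fold change among the alpha subunits. Both are from RefSeq (GRCm38.p6) on the minus strand, at chr7:57387216-57387465 and chr7:57510060-57510309, and capitals mark a GC box (GGGCGG on either strand).
Gabrg3: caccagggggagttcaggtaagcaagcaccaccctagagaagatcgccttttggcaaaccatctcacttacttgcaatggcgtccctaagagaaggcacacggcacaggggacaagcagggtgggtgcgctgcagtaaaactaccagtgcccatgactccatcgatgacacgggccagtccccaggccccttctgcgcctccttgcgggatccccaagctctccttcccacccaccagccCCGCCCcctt
Gabra5: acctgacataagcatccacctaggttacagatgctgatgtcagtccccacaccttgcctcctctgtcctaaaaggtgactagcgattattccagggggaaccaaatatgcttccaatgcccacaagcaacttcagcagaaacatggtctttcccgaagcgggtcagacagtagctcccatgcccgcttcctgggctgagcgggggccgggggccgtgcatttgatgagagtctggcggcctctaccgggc
G and C made up 60.4% of the Gabrg3 window and 56.4% of the Gabra5 window, each with 9 CpG dinucleotides, against medians of 52.4% and 6 over 32851 promoter windows of the same length. A TATA box (TATAAA), a cAMP response element (TGACGTCA), its core (TGACG, which the full element contains), an AP-1 site (TGACTCA), a homeodomain core (TAATTA) and an E-box (CAGCTG) were searched on both strands and matched neither window. The GC box matched the Gabrg3 window alone of this pair. It was present in 32.7% of all windows and in 20 of 32 windows of 27 members, counting alternative starts. The other motifs matched 12.4%, 1.55%, 17.8%, 4.46%, 4.84% and 13.0% of all windows, in the order named, and 4, 1, 4, 1, 1 and 3 of the 32. The cAMP response element was found before Kctd8, the AP-1 site before Slc12a5 and the homeodomain core before Gabrg1. A match is a description of these letters and not a site shown to be bound.

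Among the other gamma, delta and theta subunits of the set none passed. Gabrg1, the gamma1 subunit, stood at 56.8, 61.3 and 48.2 CPM in the Caspase3 libraries and at 78.5, 70.6 and 60.4 CPM in the GFP libraries, in the order of their replicate numbers. Its groups overlapped by a narrow margin, with a log2 fold change of -0.33 ± 0.13 (SE; edgeR adjusted p = 0.367). Gabrd, the delta subunit of extrasynaptic receptors, stood at 38.0, 34.7 and 37.5 against 43.2, 44.9 and 52.4 CPM. Its groups did not overlap, the log2 fold change was -0.35 ± 0.10 (SE) with a 95% interval of -0.58 to -0.12, and it did not pass (edgeR adjusted p = 0.208). GFP replicate 3 was again the highest library, and without it the log2 fold change of Gabrd was -0.27 (edgeR adjusted p = 0.434). Gabrq, the theta subunit, was at 0.76 to 1.93 CPM against 0.71 to 1.49 CPM, with overlapping groups (log2 fold change 0.29 ± 0.40, SE; edgeR adjusted p = 0.851).

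**Figure D3:**
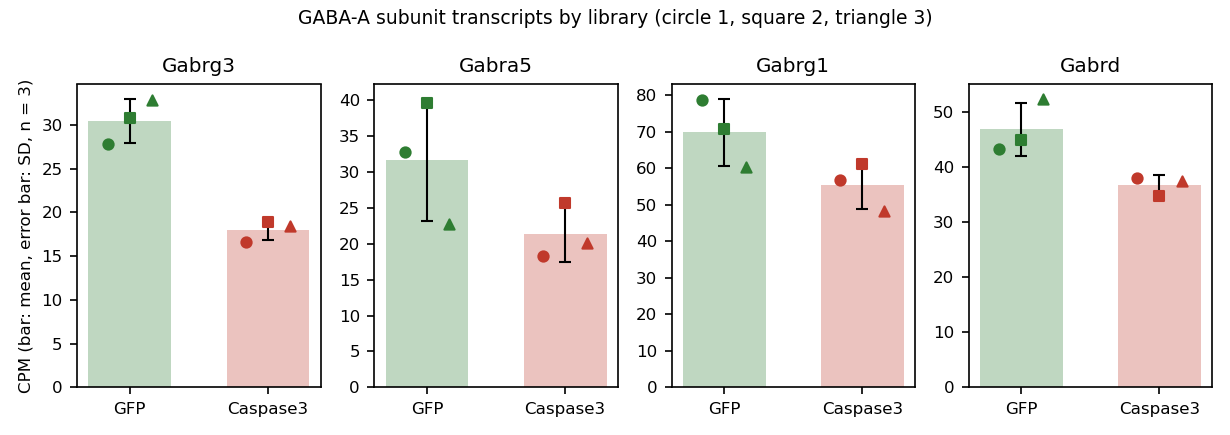
CPM of 4 GABA-A subunit transcripts by library (circle, square and triangle for replicates 1, 2 and 3), with bars at the group means and error bars of 1 SD (n = 3). Gabrg3 and Gabrd show no overlap between the groups, while for Gabra5 and Gabrg1 the GFP replicate 3 triangle falls into the range of the Caspase3 libraries.

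The alpha subunits other than alpha5 differed less between groups than within them. Gabra2, the alpha2 subunit of many cortical synapses, stood at 78.0, 125.8 and 96.0 CPM in the Caspase3 group and at 120.4, 104.1 and 117.7 CPM in the GFP group. Gabra3 stood at 126.6, 205.7 and 178.6 against 157.6, 184.1 and 171.4 CPM, and Gabra4, the alpha4 subunit that often pairs with delta, at 84.0, 149.1 and 137.2 against 135.7, 140.9 and 153.6 CPM. In each of the 3, Caspase3 replicate 1 was lowest and Caspase3 replicate 2 was higher than at least 2 of the GFP libraries. The log2 fold changes were -0.19 ± 0.16, -0.01 ± 0.16 and -0.22 ± 0.19 (SE; edgeR adjusted p = 0.740, 0.995 and 0.748). Without Caspase3 replicate 1 the value of Gabra4 was 0.00 and that of Gabra2 -0.04. Gabra2, Gabra4, Gabrb1 and Gabrg1 lie in 1 cluster on chromosome 5 (70751047 to 72149037), in which Gabra4 and Gabrb1 start head to head and share 46 exonic bases on opposite strands. No source used here states how strand was treated in counting, so reads of those bases cannot be assigned to either gene with certainty.

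Both beta subunits of the set, which with alpha form the GABA binding site, differed little between the groups. Gabrb1 stood at 176.2, 279.4 and 235.8 CPM in the Caspase3 group and at 261.2, 211.1 and 186.1 CPM in the GFP group, with a log2 fold change of 0.07 ± 0.18 (SE; edgeR adjusted p = 0.924). Gabrb2 stood at 181.8, 256.2 and 232.5 against 234.9, 286.6 and 230.1 CPM, with a log2 fold change of -0.16 ± 0.14 (SE; edgeR adjusted p = 0.751). For both genes the 95% interval lay within 1.5-fold, at -0.34 to 0.48 and -0.49 to 0.16. The rho subunits, which form GABA channels best known from the retina, were scarce: Gabrr2 had 19 to 26 counts in the Caspase3 libraries and 11 to 16 in the GFP libraries. These counts did not overlap between groups as CPM (0.86 to 1.23 against 0.51 to 0.70), and the log2 fold change of 0.84 ± 0.31 (SE) did not pass (edgeR adjusted p = 0.355). Groups without overlap were found for 4 members on the lower side (Gabrg3, Gabrd, Gphn and Slitrk3) and for 2 on the higher side (Gabrr2 and Glra1), and for 6.29% and 8.96% of all genes.

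**Figure D4:**
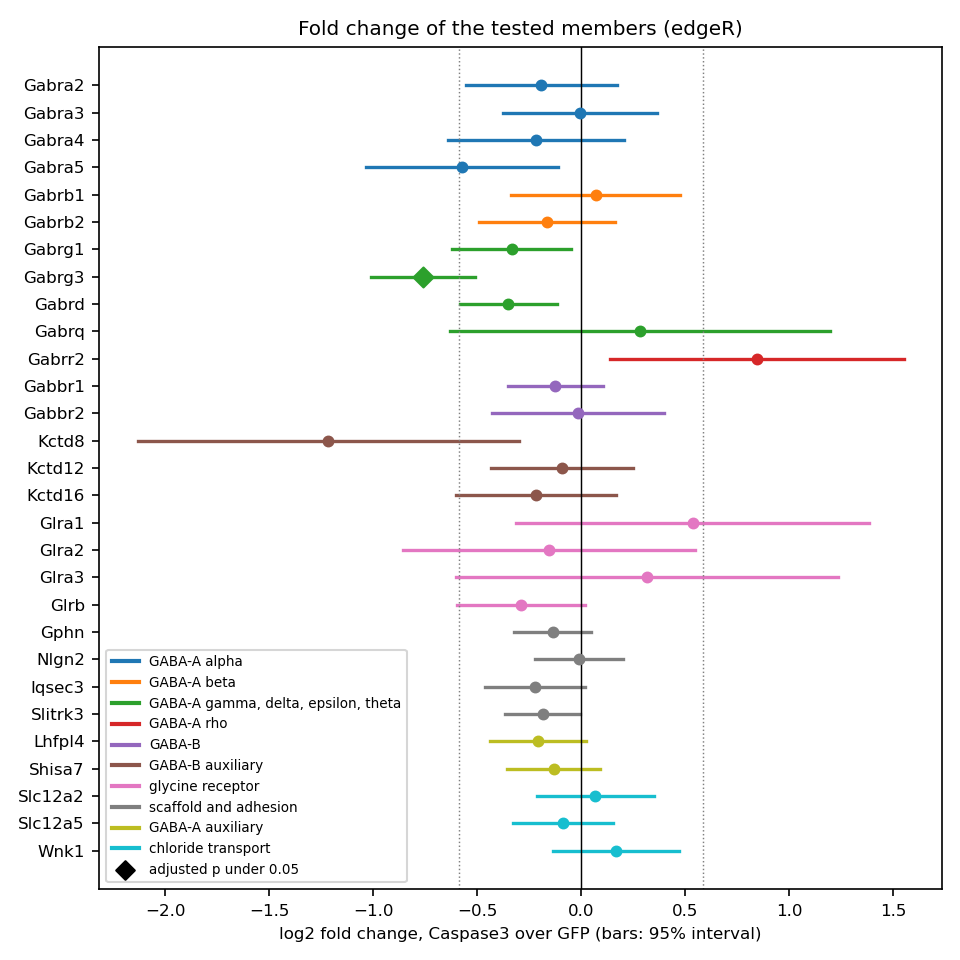
Log2 fold change of each tested member, Caspase3 over GFP, with its 95% interval as a bar, coloured by role; the dotted lines stand at 1.5-fold in either direction and the diamond marks an edgeR adjusted p under 0.05. Gabrg3, at -0.76, is the only diamond, and intervals are widest for Kctd8, Gabrq, Gabrr2, Glra1 and Glra3.

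GABA-B receptor transcripts did not pass. Gabbr1 stood at 485.0, 557.3 and 508.9 CPM in the Caspase3 group and at 553.7, 570.8 and 564.9 CPM in the GFP group, with a log2 fold change of -0.12 ± 0.10 (SE, 95% interval -0.35 to 0.11; edgeR adjusted p = 0.735). Gabbr2, the partner that couples to the G protein, stood at 162.8, 251.7 and 233.1 against 231.0, 249.0 and 174.2 CPM, with a log2 fold change of -0.01 ± 0.18 (SE; edgeR adjusted p = 0.988). Its lowest values were in Caspase3 replicate 1 and GFP replicate 3. Of the auxiliary KCTD proteins, which set the kinetics of the GABA-B response, Kctd12 and Kctd16 had log2 fold changes of -0.09 ± 0.15 and -0.22 ± 0.17 (SE; edgeR adjusted p = 0.878 and 0.721). Kctd8 was lower in abundance and uneven among the controls, at 1.14, 1.64 and 1.22 CPM in the Caspase3 libraries and 1.44, 3.05 and 4.79 CPM in the GFP libraries. Its log2 fold change of -1.22 ± 0.41 (SE) did not pass (edgeR adjusted p = 0.292), and with 1 library left out it ranged from -1.55 without GFP replicate 1 (edgeR adjusted p = 0.0629) to -0.77 without GFP replicate 3, the library with the highest value and with high striatal markers.

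Glycine receptor transcripts were led by the beta subunit. Glrb stood at 260.8, 306.4 and 251.3 CPM in the Caspase3 group and at 322.2, 390.1 and 287.5 CPM in the GFP group, with overlapping groups and a log2 fold change of -0.29 ± 0.14 (SE; edgeR adjusted p = 0.5). Among the alpha subunits, which bind glycine, Glra3 varied most, at 14.9, 50.1 and 45.2 against 42.4, 25.3 and 20.9 CPM. Its log2 fold change was 0.32 ± 0.41 (SE; edgeR adjusted p = 0.833), and with 1 library left out it ranged from 0.03 without Caspase3 replicate 2 (edgeR adjusted p = 0.982) to 0.69 without Caspase3 replicate 1 (edgeR adjusted p = 0.339). Glra2 stood at 4.17 to 8.46 against 5.17 to 10.3 CPM (log2 fold change -0.15 ± 0.31, SE; edgeR adjusted p = 0.901). Glra1 had 12 to 16 counts in the Caspase3 libraries and 6 to 13 in the GFP libraries (log2 fold change 0.54 ± 0.37, SE; edgeR adjusted p = 0.680).

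The scaffold and adhesion genes of inhibitory synapses showed small differences that did not pass. Gphn, which encodes gephyrin, the scaffold under glycine and GABA-A receptors, stood at 72.2, 71.5 and 71.6 CPM in the Caspase3 group and at 75.2, 78.1 and 83.4 CPM in the GFP group. The groups did not overlap, yet the log2 fold change was -0.14 ± 0.08 (SE, 95% interval -0.32 to 0.05; edgeR adjusted p = 0.614). A non-coding gene on the opposite strand, Gm48226, shares 147 exonic bases with Gphn. Slitrk3, an adhesion protein of inhibitory synapses, stood at 66.1, 65.1 and 65.6 against 78.3, 73.1 and 72.2 CPM, likewise without overlap (log2 fold change -0.18 ± 0.08, SE; edgeR adjusted p = 0.458). Nlgn2, the neuroligin of inhibitory synapses, was at 169.3 to 190.8 and 176.0 to 194.5 CPM, with a log2 fold change of -0.01 ± 0.09 (SE, 95% interval -0.22 to 0.20; edgeR adjusted p = 0.985). Iqsec3, an Arf exchange factor that binds gephyrin, was at 94.3 to 112.6 and 110.9 to 129.9 CPM (log2 fold change -0.22 ± 0.11, SE; edgeR adjusted p = 0.520). For all 4 the 95% interval lay within 1.5-fold. The same held for the GABA-A auxiliary proteins. Lhfpl4, which links the receptor to neuroligin 2, had a log2 fold change of -0.21 ± 0.10, and Shisa7, which shapes receptor trafficking and gating, of -0.13 ± 0.10 (SE; edgeR adjusted p = 0.538 and 0.707).

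Chloride transport genes did not pass either. Slc12a5, the exporter, stood at 409.2, 445.6 and 474.5 CPM in the Caspase3 group and at 447.7, 503.9 and 459.9 CPM in the GFP group. Slc12a2, the sodium-potassium-chloride importer NKCC1, stood at 311.1, 272.0 and 256.6 against 297.9, 229.6 and 272.8 CPM. Wnk1, a kinase that acts on both transporters, stood at 630.1, 535.5 and 486.8 against 544.7, 434.2 and 491.2 CPM. The groups overlapped for each gene. Their log2 fold changes were -0.09 ± 0.11, 0.07 ± 0.12 and 0.17 ± 0.13 (SE; edgeR adjusted p = 0.823, 0.886 and 0.723), and each 95% interval lay within 1.5-fold. For Slc12a5 the interval was -0.33 to 0.15 and for Slc12a2 -0.21 to 0.35.

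Ratios and shares within a library need no scaling between libraries, so 7 of them were compared (exact 2-sided permutation test of counts per kilobase, where 3 against 3 cannot go below 0.1). The ratio of Slc12a5 to Slc12a2 was 1.15, 1.43 and 1.62 in Caspase3 libraries 1 to 3 and 1.32, 1.92 and 1.48 in GFP libraries 1 to 3 (difference of log2 means -0.16, exact p = 0.5, adjusted over the 7 0.583). That of Gabbr1 to Gabbr2 was 1.88 to 2.57 against 1.97 to 2.79 (exact p = 0.5), and that of Gabrb1 to Gabrb2 was 0.445 to 0.501 against 0.338 to 0.511 (exact p = 0.4). Alpha3 was the leading subunit of alpha2 to alpha5 in every library. Its share was 51.7%, 51.4% and 52.1% in the Caspase3 libraries and 45.0%, 48.4% and 47.5% in the GFP libraries, so that the groups did not overlap. The means were 51.7 ± 0.351% and 47.0 ± 1.75% (SD, n = 3), with the smallest p that this exact permutation test allows, 0.1, and 0.583 after adjustment over the 7. The shares are parts of 1 total, so they do not vary independently. Gabra3 itself had a log2 fold change of -0.01, against -0.19, -0.22 and -0.57 for Gabra2, Gabra4 and Gabra5, none of which passed. The share of alpha5 was 7.71% to 9.85% against 8.30% to 13.7% (exact p = 0.3), that of alpha4 22.1% to 25.8% against 23.9% to 27.5% (exact p = 0.5) and that of alpha2 14.4% to 16.4% against 14.1% to 17.7% (exact p = 0.6). These last 3 overlapped between groups.

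**Figure D5:**
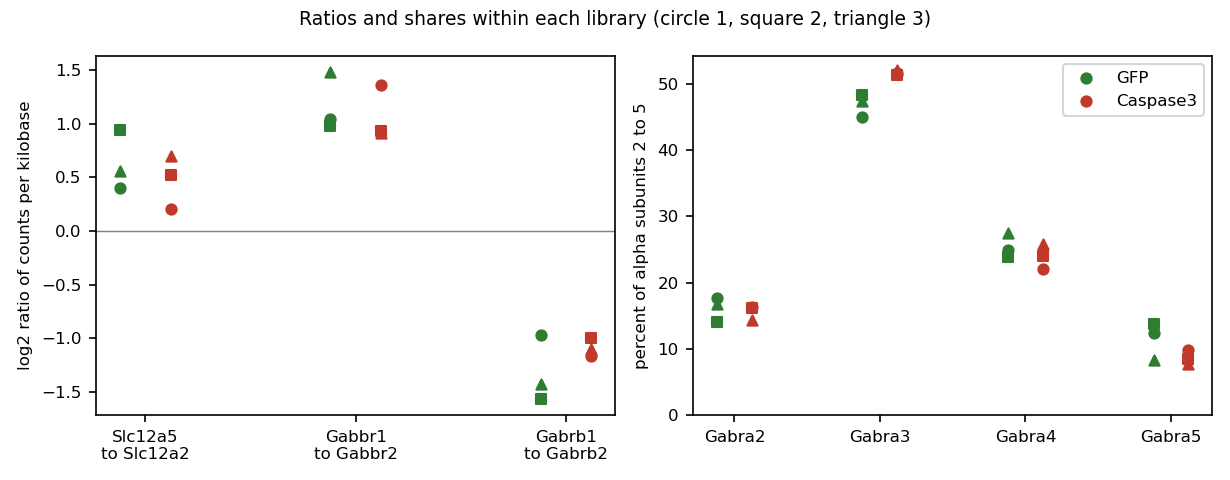
Left, log2 ratio of 3 gene pairs in counts per kilobase; right, share of each alpha subunit in the summed counts per kilobase of alpha2 to alpha5, in percent. Each point is 1 library (circle, square and triangle for replicates 1, 2 and 3), green for GFP and red for Caspase3; the alpha3 share is 51.4% to 52.1% in red and 45.0% to 48.4% in green, and the other quantities overlap.

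Other genes that act with these receptors were read from the same fit, in 4 lists by function. None of the 82 tested passed in edgeR, DESeq2 or limma-voom, and 5 were lower and 5 higher at an unadjusted p under 0.05 in edgeR, beside 3.91% and 6.72% of all genes. Over all 4 lists together the median difference on the log2 scale was -0.07. Of 18 genes of GABA-A receptor trafficking, Hap1, which carries receptors along microtubules with kinesin, had the smallest edgeR adjusted p, 0.268. Hap1 stood at 39.1, 61.3 and 68.5 CPM in the Caspase3 libraries and at 35.1, 29.4 and 43.1 CPM in the GFP libraries, overlapping through Caspase3 replicate 1 (log2 fold change 0.65 ± 0.21, SE). Without Caspase3 replicate 1 it was 0.86 and passed (edgeR adjusted p = 0.0242), in a fit in which 1.47% of all genes rose, and without Caspase3 replicate 3 it was 0.47 (edgeR adjusted p = 0.699). Of 25 adhesion and scaffold partners, Mdga2, which restrains neuroligins, came nearest (log2 fold change -0.33 ± 0.11, SE; edgeR adjusted p = 0.288). Of 19 GABA-B partners and effectors it was Gnb5, a G protein beta subunit (-0.29 ± 0.10, SE; edgeR adjusted p = 0.336). Of 20 tested genes of chloride and bicarbonate transport it was Cab39, a cofactor of the kinases that act on both transporters (-0.27 ± 0.12, SE; edgeR adjusted p = 0.464).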

How the data were processed

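Poly(A) RNA from 6 piriform cortex libraries was analysed from the deposited tables. The values are whole-number read counts per gene, per the file headers. The submitters' processing notes name DESeq2, HISAT2 and featureCounts, with GRCm38 and mm10 as builds, but no roles, versions or strand setting. The deposited FPKM values equalled counts over gene length and a constant per library proportional to the DESeq2 size factor. They were used only in alternatives. Titles gave each library's group and replicate number.

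The 6 libraries entered 1 model with an intercept and a group term in edgeR 4.0.16 under R 4.3.3. Low genes were removed by filterByExpr, scaling was by TMM, and the quasi-likelihood functions glmQLFit and glmQLFTest gave the test. In all, 16721 of 53715 genes passed the filter. An adjusted p (Benjamini-Hochberg) under 0.05 counted as a call. The SE is the absolute log2 fold change divided by the square root of F, and intervals are at 95%. Levels between genes used CPM per kilobase of the deposited gene length. All 31 members were named. For each list of partner genes the called genes, or else the 1 with the smallest adjusted p, were named. Members, lists and alternatives were chosen with earlier results of these data known. The partner lists held 84 genes, 2 of them matched through RefSeq synonyms, and 82 were tested. Exon overlaps came from GENCODE M21. Alternatives were other scalings, filters, thresholds, DESeq2 1.42.0, limma 3.58.1 (voom, or log2(FPKM + 0.1) and log2(FPKM + 1)), robust edgeR, a replicate block and libraries left out.

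The test was tried on simulated counts of this comparison (16433 genes run), where 8.33% of the calls were unchanged genes. No pair of same-group libraries looked like 1 library deposited again (mean chi-square per gene 12.6 to 32.8). Figures were drawn with Matplotlib 3.10.9.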

Additional observations from a re-analysis of the deposited data

How the results depend on the processing

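The count of 1 lower member, Gabrg3, held under 3 other scalings, a 1 CPM filter, DESeq2, limma-voom, robust edgeR and adjusted p thresholds of 0.10 and 0.01. It became 3, with Gabra5 and Kctd8, with no filter on low counts, where 913 of 31638 genes passed, and 0 in limma on log2(FPKM + 0.1) and on log2(FPKM + 1), where 11 and 0 genes fell in all and the adjusted p of Gabrg3 was 0.0704 and 0.0983. With 1 library left out at a time it ranged from 0 to 1, the 0 being without GFP replicate 2. The log2 fold change of Gabrg3 lay between -0.82 and -0.51 over 18 alternatives. No alternative called a member higher. Among the partner genes the count of rises was 0 in the report and 2 with no filter (Hap1 and Slc12a7), 2 with GFP replicate 3 and Caspase3 replicate 1 both left out (Hap1 and Igsf9b), and 0 to 1 with 1 library left out. The median of the members ranged from -0.18 to -0.04. With those libraries both left out, the difference in the alpha4 share was 0.48 percentage points, against -1.46, and that in the alpha5 share -4.95, against -2.78. The cause was not tested.

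With the replicate number as a block, Gabrg3 stood at -0.76 on the log2 scale (adjusted p = 0.00897), and no call on a member or partner gene changed. Over all genes the block called 421, against 274. Same-numbered libraries of the groups had correlations of deviations of 0.06, 0.18 and 0.03, and differently numbered ones of -0.14 to 0.08. Caspase3 replicates 2 and 3 correlated best with their own numbers, and Caspase3 replicate 1 with GFP replicate 3 (0.08). These values do not settle whether equal numbers are pairs. The labels name no pairs, so the main fit used none. Depth limits Gabre and Gabrr1, which were not tested, and Glra1, Gabrr2 and Gabrq, whose 95% intervals reached past 2-fold. The intervals of Kctd8, Glra3, Gabra5 and Gabrg3 also reached past 2-fold, although Glra3 had 315 to 1145 counts per library. For 22 of the 29 tested members the interval lay within 2-fold.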
